A study of Mus musculus with 75 samples.

Results

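A set of 10 genes that encode selenoproteins, the thioredoxin reductases among them, was followed through 5 groups of single cells of the adult mouse cochlea. They were Selenow, Selenom, Selenot, Selenok, Selenos, Selenop, Gpx1, Gpx4, Txnrd1 and Txnrd2, 10 of the 55291 genes in the table of counts. Selenow was chosen by its measured difference between wild-type outer hair cells (OHCs) and supporting cells (SCs), so its values in that comparison are a description. The other 9 belong to the same protein family, and they too were chosen with earlier results of these data known. All 10 had a mean of at least 10 counts per 1000000 (CPM) in at least 1 of the 5 groups, as did 12086 genes of the table.

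The study asked whether Atoh1 and Ikzf2, a pair of transcription factors, turn SCs of the adult cochlea into cells that resemble OHCs. The 17 WT_P30 OHCs came from Slc26a5 CreER/+; Ai9/+ mice, in which Cre acts in OHCs only, and were picked at P30 after tamoxifen at P20 and P21. The 16 WT_P60 SCs came from Fgfr3-iCreER+; Ai9/+ mice given tamoxifen at P30 and P31 and were picked at P60. This Cre labels mainly pillar cells and Deiters' cells. A further 42 cells, all Tdtomato+, were taken at P60 from Fgfr3-Atoh1-Ikzf2-DTR mice. They carried Slc26a5 DTR/+, the driver Fgfr3-iCreER+, the transgene CAG-LSL-Atoh1+ and the knock-in Rosa26 CAG-LSL-Ikzf2/+. Tamoxifen at P30 and P31 turned on both factors in SCs of these mice, and diphtheria toxin (DT) at P36 killed their own OHCs. All 75 cells were of the C57BL/6 background. From the same sequencing data, the authors divided these 42 cells, called induced cells here, into 11 OHC-like cells (Myo7a+/Prestin+), 16 nascent HCs (Myo7a+/Prestin-) and 15 SCs failing to become HCs (Myo7a-/Prestin-), called failing SCs.

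Each cell was picked by hand and sequenced as full-length cDNA by Smart-Seq. Reads carried no molecular identifier, so a count is a number of reads. The total count on genes lay between 4264780 and 22934062 per cell. The labels name no animal, and how many mice stand behind a group is not given in the sources used here. Each group was therefore treated as 1 sample. The values are descriptions of these cells without a test, and an SD is the spread between cells and not between mice. Intervals on summed counts cover counting error only and treat reads as independent. Intervals on shares of cells treat the cells of a group as independent. Neither kind covers the spread between mice. The wild-type groups differ in cell type, age and mouse line at once, and each also forms its own series of library numbers, so these cannot be told apart. Cells of Fgfr3-Atoh1-Ikzf2-DTR mice differ from WT_P60 SCs in both transgenes, the DTR allele, DT with the loss of OHCs, and series of library numbers. From WT_P30 OHCs they differ in age as well. In these comparisons too, such differences cannot be told apart.

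Selenoproteins hold selenocysteine, an amino acid that carries selenium in place of the sulfur of cysteine. It is inserted at a TGA codon (UGA in the mRNA), which elsewhere ends translation, with the help of a hairpin in the 3' end of the mRNA, the protein SECISBP2 and a dedicated tRNA. Most of the family are redox enzymes. Glutathione peroxidases reduce peroxides, thioredoxin reductases keep thioredoxin reduced, several members of the endoplasmic reticulum (ER) take part in protein quality control and calcium handling, and SELENOP carries selenium between cells. In the cochlea these enzymes belong to the defence against reactive oxygen species, to which OHCs are known to be sensitive.

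The codon that defines the family is shown for 7 of the 10 genes, because its setting separates the groups of members described here. Each line is the coding strand, 5' to 3', of 1 GENCODE M21 transcript on GRCm38, in lower case with the selenocysteine codon TGA in capitals.
Selenow: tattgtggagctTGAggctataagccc
Selenom: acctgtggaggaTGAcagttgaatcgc
Selenot: atttgtgtatccTGAgggtaccggcgg
Gpx1: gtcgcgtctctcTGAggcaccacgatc
Gpx4: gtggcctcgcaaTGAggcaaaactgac
Txnrd1: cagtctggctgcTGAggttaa
Txnrd2: gtgactggttgcTGAggctaa

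In Selenow, Selenom and Selenot the cysteine codon tgt stood 3 codons before TGA, the spacing of the CxxU motif of small redox selenoproteins. The TGA was codon 13 of 88 in Selenow (chr7:15920464-15920466, minus strand), codon 48 of 145 in Selenom (chr11:3516273-3516275, plus strand) and codon 49 of 195 in Selenot (chr3:58585238-58585240, plus strand). In Gpx1 and Gpx4 it was codon 47 of 201 and codon 73 of 197. In Txnrd1 and Txnrd2 the cysteine codon tgc stood next to it and it was the codon before the last, 498 of 499 and 526 of 527, so that both reading frames ended 1 codon after it. Selenok and Selenos also carried it near their end, at codon 92 of 94 and codon 189 of 190. Selenop had 10 such codons in frame, the first at codon 59 of 380.

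Selenow and Selenom set the pattern. Selenow was abundant in WT_P30 OHCs and low in WT_P60 SCs, and every one of the 42 induced cells lay above every WT_P60 SC. Selenom was low or at 0 in both wild-type groups and abundant in OHC-like cells and nascent HCs. Its mean in OHC-like cells was 239-fold that of WT_P30 OHCs and 71.7-fold that of WT_P60 SCs. Txnrd1 was higher in all 3 induced groups than in WT_P60 SCs by 5.15-fold to 8.98-fold, with wide overlap between cells. By means, Selenok, Selenos, Selenot, Gpx1 and Gpx4 stayed within 4-fold in all 7 comparisons made. By medians, Selenot was past 4-fold between WT_P30 OHCs and WT_P60 SCs and between OHC-like cells and WT_P30 OHCs.

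**Figure D1:**
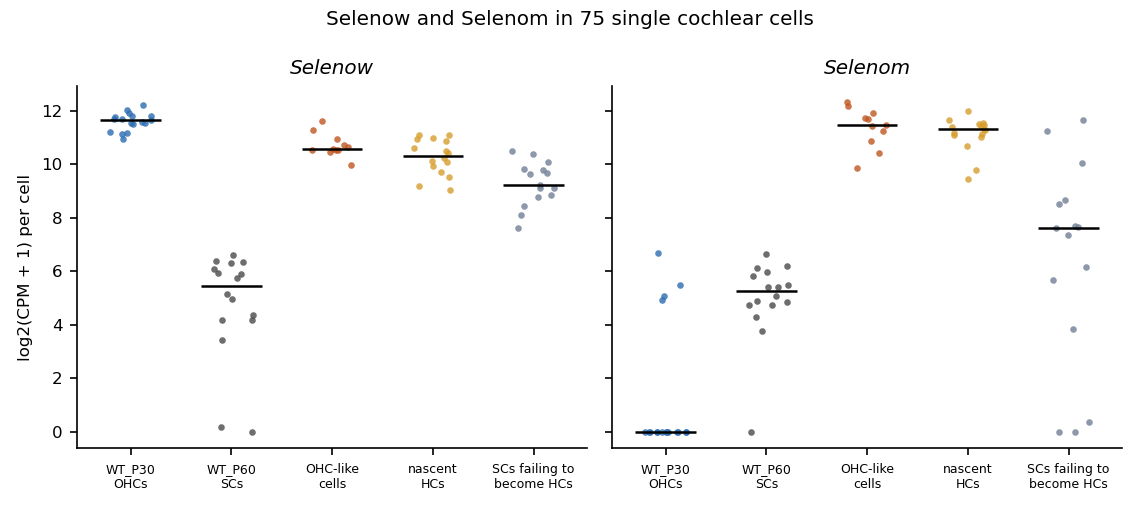
Level of Selenow (left) and Selenom (right) as log2(CPM + 1) in each of the 75 cells (points), with the median of each of the 5 groups as a bar. Selenow of the 42 induced cells lies between 196 and 3143 CPM, above the highest WT_P60 SC at 97.4 CPM, and Selenom spreads from 0 to 3178 CPM in failing SCs.

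Ratios of the mean CPM over cells were compared with a limit of 4-fold in either direction, and the share of all 12086 genes past the limit is given beside each count. Between WT_P30 OHCs and WT_P60 SCs, 1 of the 10 genes (Selenow) was higher past 4-fold, against 15.4% of all genes, and 2 (Selenop and Txnrd2) were lower, against 21.5%. Since Selenow was chosen on this comparison, nothing is read from that count. In OHC-like cells against WT_P60 SCs, 3 (Selenom, Selenow and Txnrd1) were higher, against 19.9%, and 0 lower, against 12.0%. In nascent HCs against WT_P60 SCs, the same 3 were higher, against 19.5%, and 2 (Txnrd2 and Selenop) lower, against 10.5%. In failing SCs against WT_P60 SCs, these 3 were again higher, against 17.5%, and 0 lower, against 8.51%. In OHC-like cells against WT_P30 OHCs, 2 (Selenom and Selenop) were higher, against 24.6%, and 0 lower, against 10.1%. Against failing SCs, 1 (Selenom) was higher in OHC-like cells, against 12.6%, and 0 lower, against 12.9%. Against nascent HCs none was past the limit in OHC-like cells in either direction, with 4.97% of all genes higher and 6.82% lower. Beside these shares, the counts of 0 to 3 of 10 genes are not read as a result about the family. The first 4 of these comparisons share the WT_P60 SCs as controls.

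With a limit of 2-fold in place of 4-fold, 2 of the 10 were higher and 4 lower in WT_P30 OHCs than in WT_P60 SCs, against 25.3% and 32.2% of all genes. Against WT_P60 SCs, 3 were higher and 2 lower in OHC-like cells (33.8% and 20.1% of all genes), 4 higher and 3 lower in nascent HCs (32.7% and 18.8%), and 3 higher and 2 lower in failing SCs (30.5% and 17.3%). Selenos, higher, and Gpx1, lower, were the genes that nascent HCs gained. In OHC-like cells 2 were higher and 0 lower than in WT_P30 OHCs (38.7% and 17.6%), 2 higher and 1 lower than in failing SCs (24.4% and 23.2%), and 2 higher and 0 lower than in nascent HCs (13.6% and 14.7%).

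Fewer genes separated 2 groups cell by cell. Every WT_P30 OHC lay above every WT_P60 SC for 1 of the 10, Selenow, against 1.03% of all genes. Since Selenow was chosen on this comparison, nothing is read from that. The induced groups were set against the same WT_P60 SCs, so the low Selenow of these SCs enters those comparisons too. Every OHC-like cell did so for 2, Selenow and Selenom, against 0.786%, and every nascent HC for the same 2, against 0.546%. Every failing SC did so for 1, Selenow, against 0.0414%, or 5 of the 12086 genes. For 1, Selenom, every OHC-like cell lay above every WT_P30 OHC, against 0.678%.

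Taking the 10 genes as a list, the median log2 ratio was -0.09 for WT_P30 OHCs against WT_P60 SCs, beside -0.01 over all genes. Against WT_P60 SCs it was -0.10 in OHC-like cells, -0.19 in nascent HCs and 0.33 in failing SCs, beside 0.29, 0.31 and 0.22 over all genes. It was 0.35 for OHC-like cells against WT_P30 OHCs, beside 0.49, and 0.06 and 0.24 against failing SCs and nascent HCs, beside -0.0046 and 0.02. Single ratios are given as measured, without subtracting the median over all genes.

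**Figure D2:**
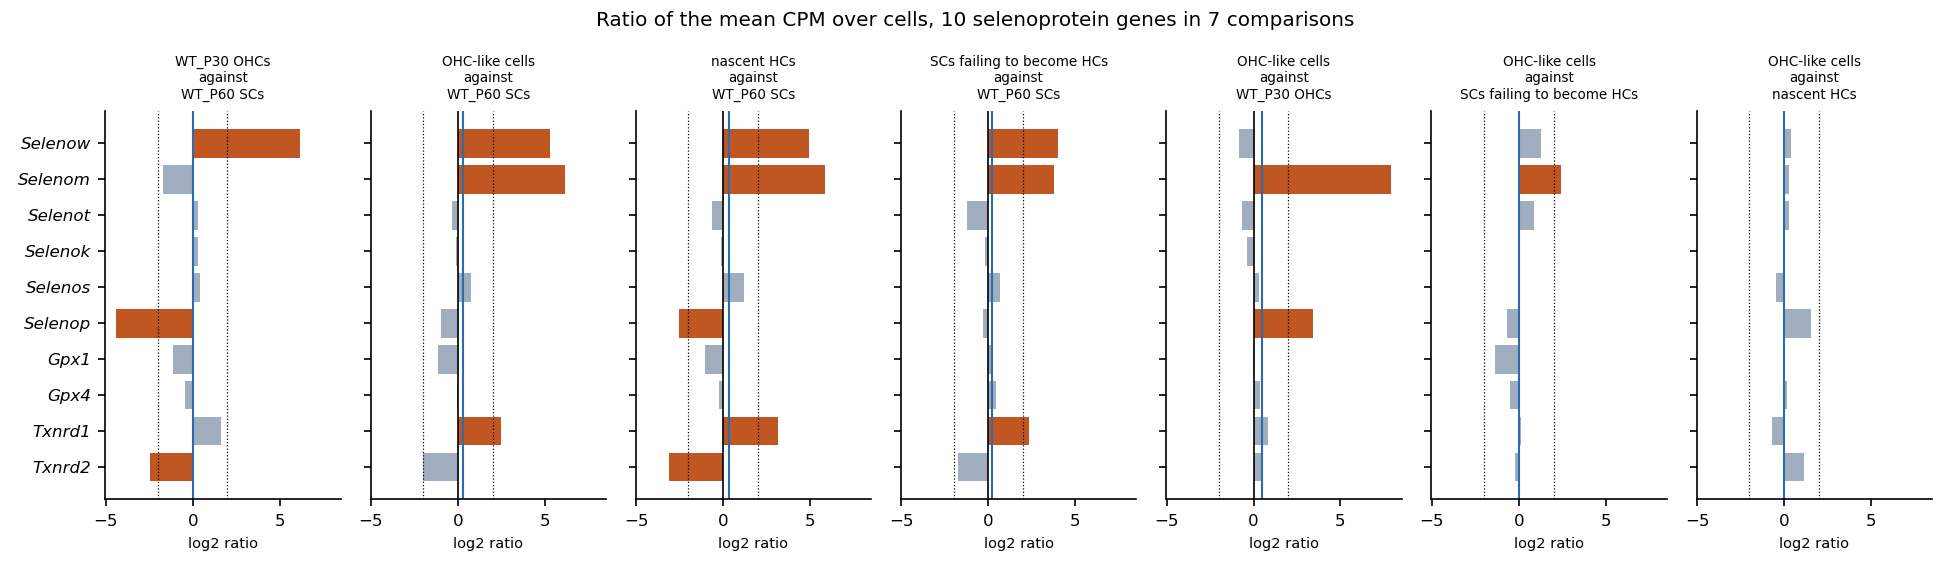
Log2 ratio of the mean CPM over cells for the 10 genes (rows) in 7 comparisons (panels), with dotted lines at 4-fold, a blue line at the median of all 12086 genes, and bars past 4-fold in orange. Selenow and Selenom have the longest bars against WT_P60 SCs, and Selenom reaches 7.90 against WT_P30 OHCs.

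Selenow encodes a small thioredoxin-like selenoprotein known from muscle and brain. It lies on chromosome 7 of GRCm38 from 15917208 to 15922402 on the minus strand, and no exon of another gene overlaps its exons. In the 17 WT_P30 OHCs its level ran from 1944 to 4718 CPM (median 3254, mean 3172 ± 719.9, SD between cells). In the 16 WT_P60 SCs it ran from 0 to 97.4 CPM (median 43.5, mean 44.2 ± 32.0), and 14 of 16 cells held at least 1 CPM (87.5%, exact Clopper-Pearson 95% interval 61.7% to 98.4%). The ratio was 71.7-fold, and the groups did not overlap.

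The induced cells lay between the wild types. OHC-like cells ran from 1006 to 3143 CPM (median 1524, mean 1746 ± 587, SD between 11 cells). Nascent HCs ran from 521 to 2192 CPM (median 1279.8, mean 1346 ± 559, 16 cells). Failing SCs ran from 196 to 1435 CPM (median 602, mean 712 ± 370.4, 15 cells). Thus 42 of 42 induced cells were above the highest WT_P60 SC and 0 of 42 above the highest WT_P30 OHC. Against WT_P60 SCs the ratios were 39.5-fold, 30.4-fold and 16.1-fold.

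By median, the order of Selenow was WT_P30 OHCs, OHC-like cells, nascent HCs, failing SCs and WT_P60 SCs. Each of the first 4 groups overlapped in range with its neighbour among them, and only the step down to WT_P60 SCs left a gap. Of the OHC-like cells, 8 of 11 were below the lowest WT_P30 OHC, as were 12 of 16 nascent HCs and 15 of 15 failing SCs. The log2 ratio of OHC-like cells was -0.86 to WT_P30 OHCs, 0.38 to nascent HCs and 1.29 to failing SCs. Without 7 cells with a mapping rate under 0.7, 5 of them failing SCs, the mean of that group was 568 ± 287 CPM (SD between 10 cells) and all 10 stayed above the highest WT_P60 SC, with a lowest value of 196 CPM.

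Selenom encodes a thioredoxin-like selenoprotein of the ER lumen that has been tied to calcium release and redox balance in neurons. The gene lies on chromosome 11 from 3514684 to 3517351 on the plus strand, with no overlapping exon. It had no count in 13 of 17 WT_P30 OHCs, and the other 4 held between 29.7 and 102 CPM. In WT_P60 SCs it ran from 0 to 99.6 CPM (median 37.2, mean 41.0 ± 25.4, SD between cells) and was at 1 CPM or more in 15 of 16. Both wild-type groups therefore reached no further than about the same level, and the ratio of their means was 3.33-fold in favour of WT_P60 SCs. That ratio rests in part on 1 WT_P30 OHC, cell 13, without which the log2 ratio went from -1.74 to -2.62.

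In OHC-like cells Selenom ran from 923 to 5063 CPM (median 2823, mean 2942 ± 1293, SD between 11 cells). The highest value was that of OHC-like cell 4, which had the fewest genes detected of its group (3348), and without it the range ended at 4669 CPM with a mean of 2729 ± 1143. In nascent HCs it ran from 701 to 4105 CPM (median 2539, mean 2411 ± 837, 16 cells). All 27 of these cells lay above every wild-type cell. The log2 ratios to WT_P60 SCs were 6.16 and 5.88, and that of OHC-like cells to WT_P30 OHCs was 7.90, or 8.78 without WT_P30 OHC 13. OHC-like cells and nascent HCs overlapped almost throughout, with a log2 ratio of 0.29.

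In failing SCs Selenom ranged from 0 to 3178 CPM. It had no count in 2 of the 15 cells and 0.286 CPM in 1 more, while the highest 3 cells held 1067, 2442 and 3178 CPM (median 193, mean 557 ± 964, SD between cells). Of the 15, 9 were above the highest WT_P60 SC, and the other 6 lay within the wild-type range. The ratio of the means to WT_P60 SCs was 13.6-fold, and that of OHC-like cells to this group was 5.28-fold, with ranges that overlapped. Without cell 5, the highest, the log2 ratios went from 3.76 to 3.17 and from 2.40 to 2.99. Selenow did not share this split, as its lowest value in the group was 196 CPM.

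Selenow and Selenom thus differed in their order over the groups. Their Spearman correlation over the 75 cells was -0.07. Within groups it was -0.33 in WT_P30 OHCs, -0.10 in WT_P60 SCs, -0.42 in OHC-like cells, 0.03 in nascent HCs and 0.33 in failing SCs, over 11 to 17 cells each. These are descriptions, and the cells of a group share their series of library numbers in part.

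The regions before the 2 genes are shown because ATOH1 is a basic helix-loop-helix factor, whose family binds E-boxes, spelled CANNTG. The sequences are those of RefSeq for GRCm38.p6, in the direction of the gene, with each E-box in capitals.
Selenow, chr7:15922403-15922621 (minus strand): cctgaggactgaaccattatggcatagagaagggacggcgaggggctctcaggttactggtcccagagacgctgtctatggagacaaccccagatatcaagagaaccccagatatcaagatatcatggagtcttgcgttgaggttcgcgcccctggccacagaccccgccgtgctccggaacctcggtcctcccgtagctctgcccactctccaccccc
Selenom, chr11:3514434-3514683 (plus strand): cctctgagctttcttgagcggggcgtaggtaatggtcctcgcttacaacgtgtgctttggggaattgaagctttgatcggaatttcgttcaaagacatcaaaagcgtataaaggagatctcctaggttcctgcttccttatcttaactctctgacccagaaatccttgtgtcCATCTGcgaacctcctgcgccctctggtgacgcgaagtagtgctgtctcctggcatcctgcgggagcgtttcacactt

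The 250 bases before the RefSeq start of Selenom held 1 E-box, CATCTG, 78 bases before the start. Those of Selenow held 1, CACTTG at 30 bases, which lies in a stretch of 31 bases that GENCODE counts to the first exon and that is not printed. CANNTG reads the same in its fixed letters on both strands, and 66.0% of 27025 promoters of this length, the first listed of each gene, held at least 1. CAGATG, counted with its reverse complement CATCTG and contained in CANNTG, was in 14.5% of them. In the first listed promoters of the 10 genes, 9 held at least 1 CANNTG, and CAGATG or CATCTG was found in that of Selenom. Gpx4, with 4 listed promoters, held CAGATG or CATCTG in 2 of the later ones. A match is a description of letters and was not related to the levels.

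Selenot, the third member with a CxxU motif, encodes an ER membrane protein linked to calcium homeostasis in neuroendocrine cells. Its medians were 13.5 CPM in WT_P30 OHCs, 61.0 in WT_P60 SCs, 64.0 in OHC-like cells, 46.2 in nascent HCs and 28.8 in failing SCs. Single WT_P30 OHCs ran from 0 to 665 CPM, and 2 of them exceeded the highest WT_P60 SC. By means, no log2 ratio was past -1.21, that of failing SCs to WT_P60 SCs. That of WT_P30 OHCs to WT_P60 SCs was 0.32, and -0.31 without WT_P30 OHC 11, the highest. By medians it was -2.18, and that of OHC-like cells to WT_P30 OHCs went from -0.68 to 2.24. The gene lies on chromosome 3 from 58576636 to 58593133.

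Selenok and Selenos encode ER membrane proteins that take part in ER-associated degradation, by which misfolded proteins are returned to the cytosol, and SELENOK also works with the palmitoyltransferase ZDHHC6. Selenok was detected in all 75 cells, with medians between 588 CPM in OHC-like cells and 785 CPM in WT_P30 OHCs. Its log2 ratios in the 7 comparisons lay between -0.41 and 0.29, and all groups overlapped. Selenos was highest in nascent HCs, from 131 to 678 CPM (median 304), and had a median of 115 CPM in WT_P60 SCs. In nascent HCs 7 of 16 cells exceeded the highest WT_P60 SC, and the log2 ratio was 1.19. Of 8 listed partners in ER-associated degradation, 1 was lower past 4-fold than in WT_P60 SCs both in WT_P30 OHCs and in OHC-like cells (21.5% and 12.0% of all genes), and none was past it in OHC-like cells against WT_P30 OHCs. That partner was Zdhhc6, with means of 13.0 CPM in WT_P30 OHCs, 89.0 in WT_P60 SCs and 20.5 in OHC-like cells.

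**Figure D3:**
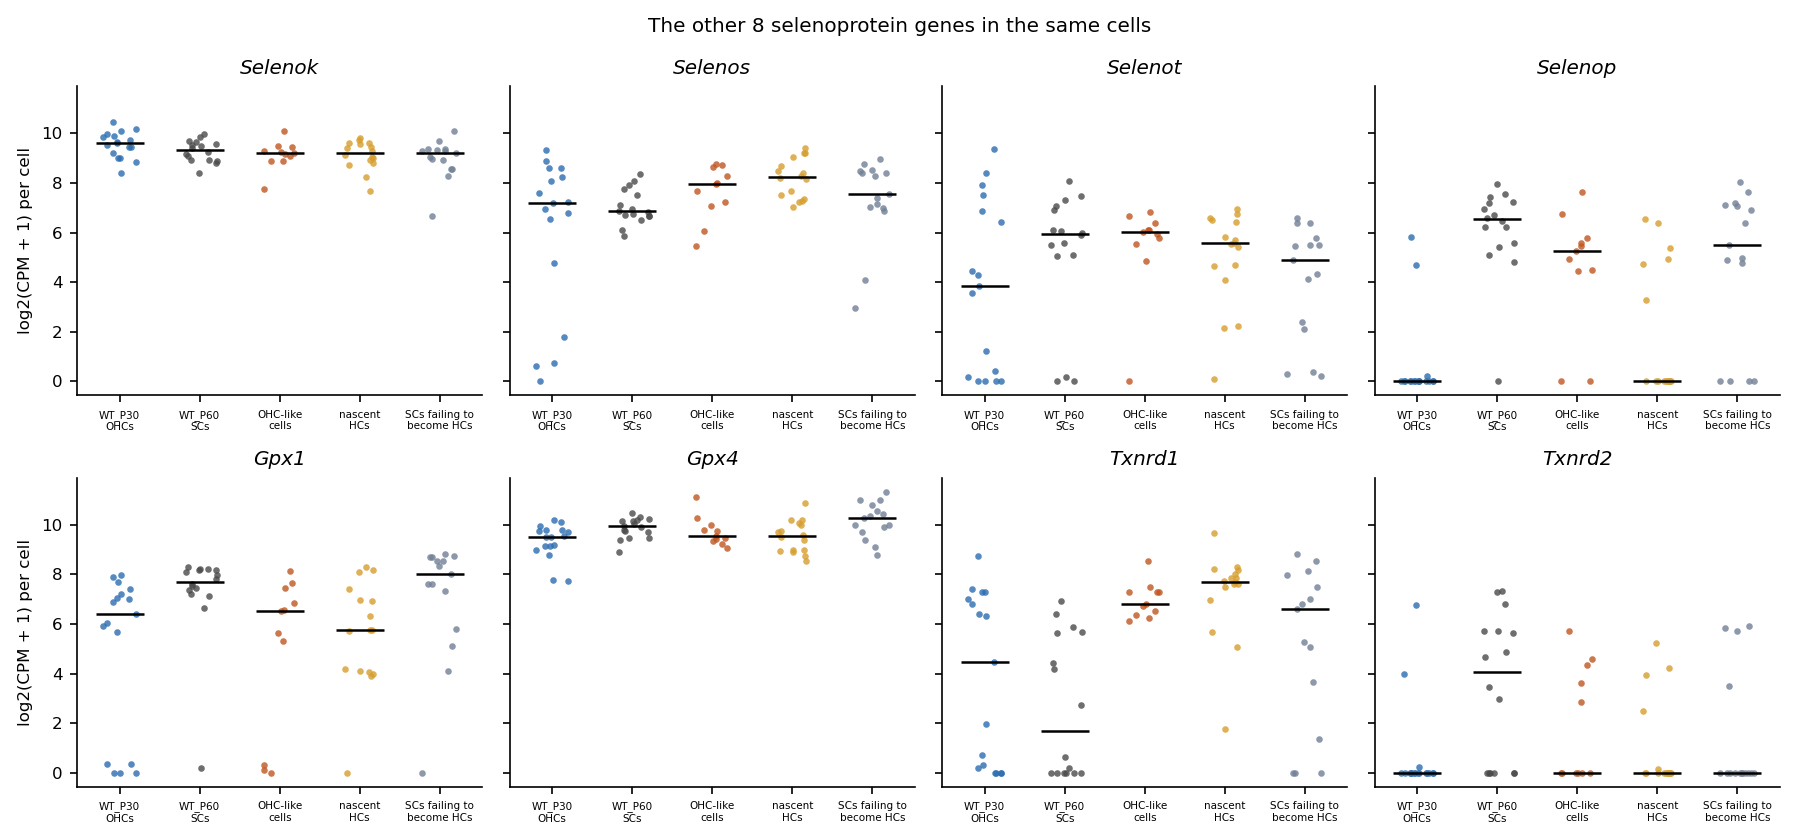
Level of the other 8 genes as log2(CPM + 1) in each cell (points), with the group median as a bar. Selenok and Gpx4 sit at similar heights in the 5 groups, Selenop and Txnrd2 have many cells at 0 in WT_P30 OHCs, and Txnrd1 has its highest median, 207 CPM, in nascent HCs.

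Selenop encodes the secreted carrier of selenium. It had no count in 14 of 17 WT_P30 OHCs and reached 54.7 CPM in the highest. The summed counts of the group came to 4.45 CPM (exact Poisson 95% interval 4.07 to 4.85). That interval covers neither the spread between cells nor amplified copies. Of the 519 reads, WT_P30 OHC 13 held 324 and WT_P30 OHC 16 held 194. In WT_P60 SCs Selenop was at 1 CPM or more in 15 of 16 cells, from 0 to 244 CPM (median 91.4, mean 99.8 ± 66.0, SD between cells). The ratio was 21.3-fold, a log2 ratio of -4.41, and 64.0-fold without the highest WT_P30 OHC, cell 13. OHC-like cells held it in 9 of 11 cells (median 36.7 CPM, highest 197), nascent HCs in 6 of 16 (median 0, highest 91.2) and failing SCs in 11 of 15 (median 44.0, highest 263).

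The means of Selenop gave log2 ratios to WT_P60 SCs of -0.99 in OHC-like cells, -2.52 in nascent HCs and -0.31 in failing SCs. To WT_P30 OHCs the ratio of OHC-like cells was 10.7-fold higher, with a log2 ratio of 3.42 that became 5.01 without that WT_P30 OHC. Against nascent HCs the log2 ratio of OHC-like cells was 1.53, and it passed 4-fold, at 2.01, without nascent HC 5. All of these groups overlapped. Selenop lies on chromosome 15 from 3268547 to 3280508 and shares 439 exon bases with Ccdc152 on the opposite strand. The counting is not stated to use strand, so reads of the shared part cannot be assigned.

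LRP8, the receptor that takes up SELENOP in the brain, was followed with the selenocysteine machinery, a list of 12 genes of which 11 reached 10 CPM in a group. Lrp8 was the only 1 of them past 4-fold between WT_P30 OHCs and WT_P60 SCs, at a mean of 104 against 4.41 CPM, where 15.4% of all genes were higher and 21.5% lower. Its mean was 106 CPM in OHC-like cells, 34.4 in nascent HCs and 4.28 in failing SCs. It was detected in 12 of 17 WT_P30 OHCs, 3 of 16 WT_P60 SCs and 9 of 11 OHC-like cells. OHC-like cells had 2 of the 11 higher than WT_P60 SCs past 4-fold (Lrp8 and Trit1) and 1 lower (Sepsecs). Against WT_P30 OHCs, 1 was higher (Trit1) and 1 lower (Sepsecs). Trit1, which modifies a base of several tRNAs, that of selenocysteine among them, had means of 13.1 and 12.5 CPM in the wild-type OHCs and SCs and 61.2, 102 and 126 CPM in OHC-like cells, nascent HCs and failing SCs. Sepsecs, which makes selenocysteine on its tRNA, was detected in 3 of 16 WT_P60 SCs and 1 of 11 OHC-like cells, so its ratio rests on few cells. Secisbp2 and Eefsec, which carry the insertion itself, stayed under 4-fold in these 3 comparisons, with means of 25.9 to 36.1 and 21.0 to 45.5 CPM over the groups.

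Gpx1 and Gpx4 encode glutathione peroxidases, the first acting on hydrogen peroxide in the cytosol and the second on lipid peroxides in membranes. Gpx4 was detected in all 75 cells. Its medians were 738 CPM in WT_P30 OHCs, 984 in WT_P60 SCs, 759 in OHC-like cells, 755 in nascent HCs and 1239.6 in failing SCs, and its log2 ratios in the 7 comparisons lay between -0.49 and 0.42. Gpx1 had medians of 83.7, 208, 92.2, 52.7 and 259 CPM in the same order. It was above the highest WT_P30 OHC (248 CPM) in 8 of 15 failing SCs and 7 of 16 WT_P60 SCs, against 1 of 11 OHC-like cells and 3 of 16 nascent HCs. Its log2 ratio was -1.11 in WT_P30 OHCs and -1.14 in OHC-like cells against WT_P60 SCs, and -1.38 in OHC-like cells against failing SCs. The ranges overlapped in each case. Of the 9 listed pseudogenes of Selenok, Selenot and Gpx4, near-identical copies that could take reads, none had a group mean above 9.10 CPM.

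Txnrd1 encodes the cytosolic thioredoxin reductase and Txnrd2 the mitochondrial one. Txnrd1 ran from 0 to 120 CPM in WT_P60 SCs (median 3.08, mean 25.2 ± 36.5, SD between cells) and from 0 to 428 CPM in WT_P30 OHCs (median 20.8, mean 78.5 ± 111). It was detected in 11 of 11 OHC-like cells, from 68.1 to 376 CPM (median 109.8, mean 142 ± 86.7). All 16 nascent HCs held it, from 2.41 to 815 CPM (median 207, mean 226 ± 182), and 13 of 16 exceeded the highest WT_P60 SC. Failing SCs ran from 0 to 447 CPM (median 95.9, mean 129.7 ± 146), with 12 of 15 detected. The ratios to WT_P60 SCs were 5.62-fold, 8.98-fold and 5.15-fold for the 3 induced groups, and the log2 ratio of OHC-like cells to WT_P30 OHCs was 0.85. That of WT_P30 OHCs to WT_P60 SCs was 1.64, and 2.06 without WT_P60 SC 1. All of these groups overlapped with the wild types.

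Txnrd2 was the sparsest of the 10. It was at 1 CPM or more in 10 of 16 WT_P60 SCs (62.5%, exact Clopper-Pearson 95% interval 35.4% to 84.8%) but in 2 of 17 WT_P30 OHCs (11.8%, 1.46% to 36.4%), 5 of 11 OHC-like cells, 4 of 16 nascent HCs and 4 of 15 failing SCs. Its median was 17.1 CPM in WT_P60 SCs and 0 in the other 4 groups. The log2 ratios to WT_P60 SCs were -2.48 in WT_P30 OHCs, -1.99 in OHC-like cells, just short of 4-fold, -3.14 in nascent HCs and -1.77 in failing SCs. Single cells carried much of these values. The ratio in WT_P30 OHCs went to -5.43 without WT_P30 OHC 16, that in OHC-like cells to -2.75 without OHC-like cell 11, that in nascent HCs to -4.06 without nascent HC 16, and that in failing SCs to -2.26 without cell 5 of the group. For OHC-like cells the log2 ratio to WT_P30 OHCs went from 0.49 to 3.44 without WT_P30 OHC 16, and that to nascent HCs from 1.15 to 2.06 without nascent HC 16. It lies on chromosome 16 from 18426384 to 18479073.

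Levels of different genes were compared as transcripts per 1000000 (TPM), computed from the counts and the length of all exons. By median TPM, Selenow was first of the 10 in WT_P30 OHCs at 9902 TPM, rank 13 of 53292 genes, and above Gpx4, the next at 1013 TPM, in 17 of 17 cells. In WT_P60 SCs Gpx4 was first at 1502 TPM, above Selenok (900.1 TPM) in 14 of 16 cells, and Selenow was the fifth at 163 TPM. In OHC-like cells Selenow (4640.2 TPM) and Selenom (3788 TPM) were first and second, with Selenow above Selenom in 6 of 11 cells, and every cell had Selenom above Gpx4 at 890.2 TPM. In nascent HCs the same 2 stood at 3627 and 3561 TPM, with Selenow above in 8 of 16 cells. In failing SCs Selenow stood at 1846 TPM, above Gpx4 (1660.5 TPM) in 10 of 15 cells, and Selenom was sixth at 240.4 TPM. Most other neighbours in these orders overlapped in range.

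The 10 genes together had a median of 12108.5 TPM in WT_P30 OHCs, 3369 in WT_P60 SCs, 11225 in OHC-like cells, 10383 in nascent HCs and 6103 in failing SCs. Selenow made up a median of 82.3% of that sum in WT_P30 OHCs and 4.05% in WT_P60 SCs. In OHC-like cells Selenow made up 43.0% and Selenom 40.6%, and in nascent HCs 39.1% and 35.3%. In failing SCs Selenow made up 34.3% and Selenom 4.33%.

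**Figure D4:**
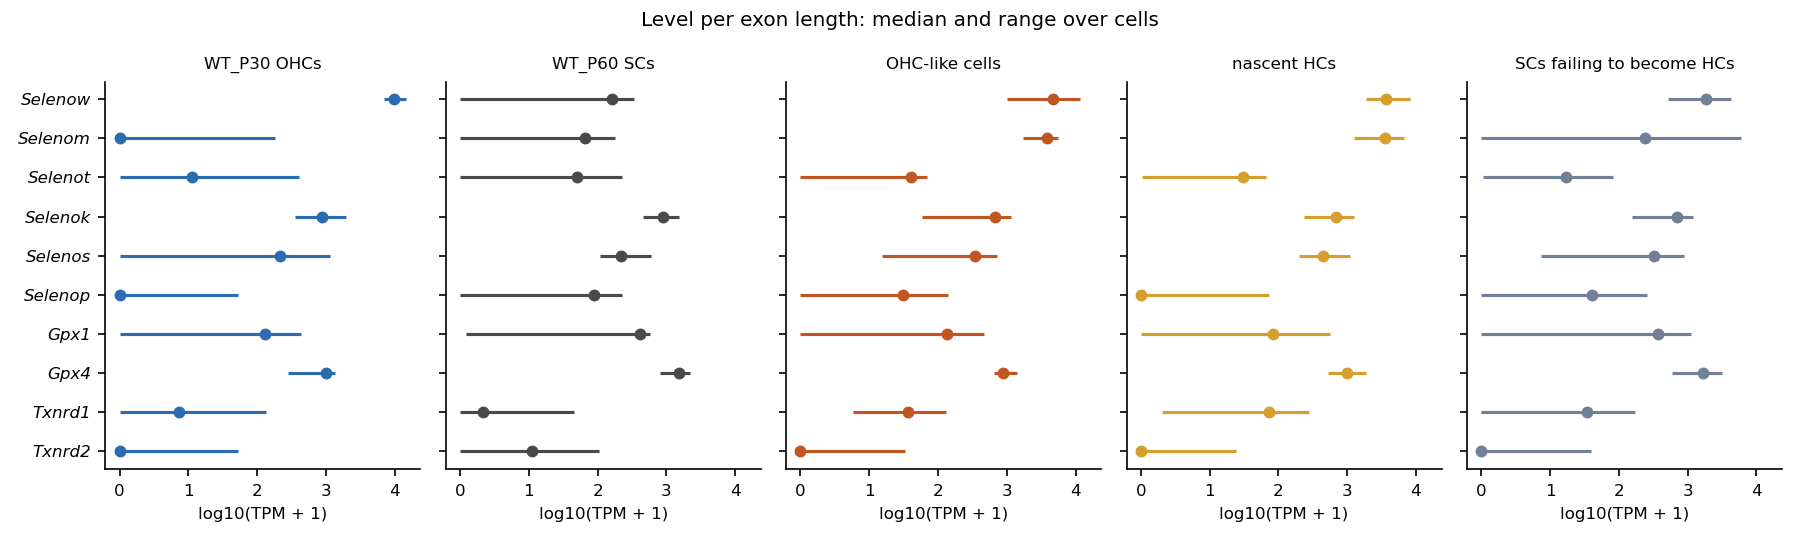
Level per exon length as log10(TPM + 1) for the 10 genes (rows) in the 5 groups (panels), with the median over cells as a point and the range over cells as a line. Selenow leads in every group but WT_P60 SCs, where Gpx4 leads at 1502 TPM, and Selenom stands beside it in OHC-like cells and nascent HCs.

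Of 14 other selenoprotein genes, 8 reached 10 CPM in a group. Between WT_P30 OHCs and WT_P60 SCs, 0 of the 8 were higher and 2 were lower past 4-fold (Selenoh and Selenoo), beside 15.4% and 21.5% of all genes. In OHC-like cells against WT_P60 SCs, 2 were higher (Dio1 and Selenoh) and 1 was lower (Selenoi), beside 19.9% and 12.0% of all genes. Against WT_P30 OHCs 4 were higher and 1 was lower, beside 24.6% and 10.1%. Selenoh, a nucleolar member, was detected in 1 of 17 WT_P30 OHCs, 5 of 16 WT_P60 SCs and all 11 OHC-like cells. Its means were 2.25, 12.8 and 78.0 CPM. Selenoi, which makes a membrane phospholipid, had means of 174 and 113 CPM in the wild-type OHCs and SCs against 13.5, 23.4 and 15.0 CPM in OHC-like cells, nascent HCs and failing SCs. Selenoo, a mitochondrial member, had a mean of 57.0 CPM in WT_P60 SCs and 10.2 in WT_P30 OHCs, and its exons overlap those of Tubgcp6 on the opposite strand. Dio1, which activates thyroid hormone, was detected in 1 of 11 OHC-like cells and 2 of 16 nascent HCs and had no count in the other groups. Selenof, another ER member, stayed under 4-fold, with means of 326 to 551 CPM.

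Gpx2, a glutathione peroxidase known from the gut epithelium, was singled out after its values were seen. It ran from 1381 to 7013 CPM in WT_P30 OHCs and from 4852 to 27563 CPM in WT_P60 SCs, so it stayed under 4-fold between them by means of 3757 and 11745 CPM. In failing SCs it ran from 0 to 1519 CPM (median 10.9, mean 194), a mean 60.4-fold below that of WT_P60 SCs and without overlap. Without failing SC 13, the highest, the mean was 99.8 CPM and 118-fold below. Medians were 4322 CPM in OHC-like cells and 4401 CPM in nascent HCs.

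The 42 induced cells carried library numbers of 5 series, called A to E, and Gpx2 differed with these. In series A and C, which held 14 of the 15 failing SCs, the single OHC-like cell and the 2 nascent HCs held 0, 26.5 and 0.0722 CPM of Gpx2. In series B and D all 8 OHC-like cells held at least 2309.8 CPM, and 9 of 10 nascent HCs at least 1422 CPM. In series E both OHC-like cells held at least 2152 CPM, while the nascent HCs ran from 0.195 to 4357 CPM (median 1.23). The single failing SC of series E held 35.8 CPM. The series and the group cannot be told apart for most failing SCs, so the low Gpx2 of this group stands beside its series.

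Selenow and Selenom did not fall so low in the OHC-like cell and the nascent HCs of series A and C. Selenom in OHC-like cells did differ with the series, however. It ran from 2773 to 5063 CPM in series B and from 2394 to 4669 CPM in series D. The OHC-like cells of series A and E lay below these, at 1363 CPM in A and 923 to 1847 CPM in E. Nascent HCs did not follow that order. In series A the OHC-like cell held 1679 CPM of Selenow and 1363 of Selenom, and the nascent HC held 975 and 4105 CPM. In series C the nascent HC held 2192 and 2178 CPM. The 4 failing SCs of series A ran from 347 to 1435 CPM of Selenow and from 0 to 2442 CPM of Selenom, and the 10 of series C from 196 to 1333 and from 0 to 3178 CPM. Within series, the log2 ratio of OHC-like cells to failing SCs was 1.04 for Selenow and 0.86 for Selenom in series A (1 cell against 4) and 2.39 and 6.69 in series E (2 cells against 1). To nascent HCs it was 0.17 and 0.60 in series B (5 against 6), 0.26 and 0.38 in series D (3 against 4) and 1.09 and -0.42 in series E (2 against 4). In series A, with 1 cell each, it was 0.78 and -1.59. The lead of OHC-like cells over nascent HCs in Selenom thus turned in 2 of 4 series.

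**Figure D5:**
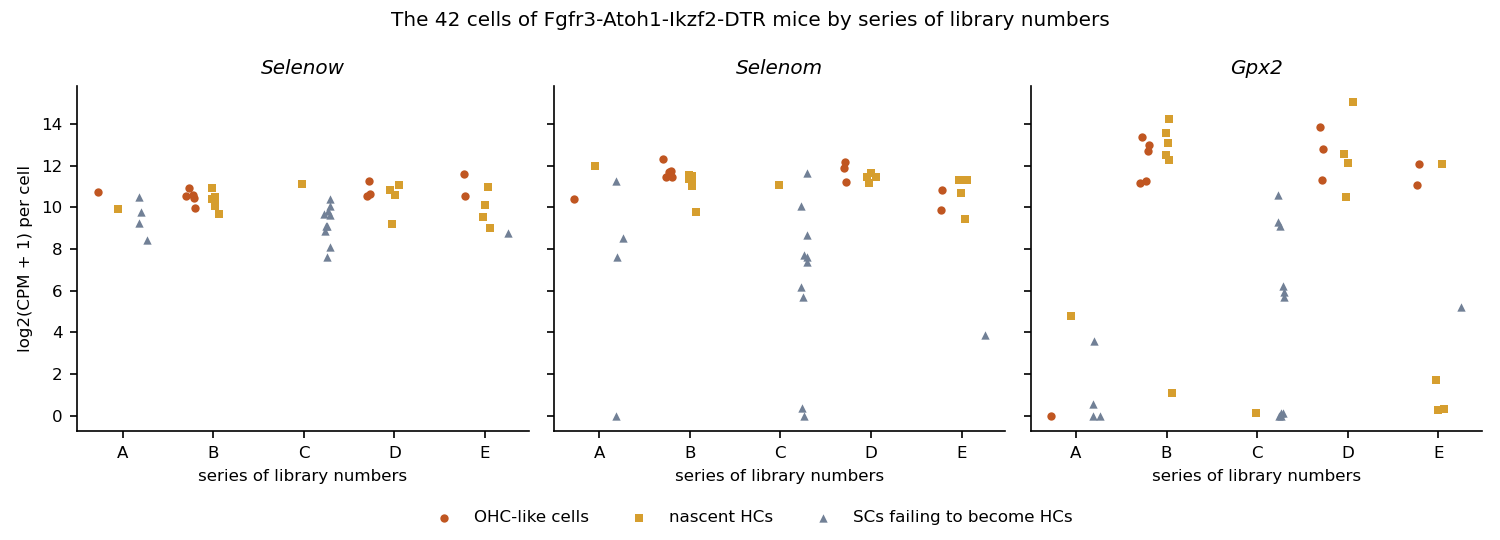
Level of Selenow, Selenom and Gpx2 as log2(CPM + 1) in the 42 induced cells, by series of library numbers (A to E), with circles for OHC-like cells, squares for nascent HCs and triangles for failing SCs. Selenow stays above 196 CPM in all series, while Gpx2 in series A and C is at most 1519 CPM in cells of all groups present.

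A list of 17 thioredoxin and glutaredoxin partners was followed beside Txnrd1 and Txnrd2, and all of them reached 10 CPM in a group. Between WT_P30 OHCs and WT_P60 SCs, 2 were higher and 6 lower past 4-fold, beside 15.4% and 21.5% of all genes. In OHC-like cells 2 were higher and 2 lower than in WT_P60 SCs (19.9% and 12.0% of all genes), and 2 higher and 1 lower than in WT_P30 OHCs (24.6% and 10.1%). Prdx6, a peroxiredoxin that also repairs phospholipids, ran from 1500.1 to 4868 CPM in WT_P60 SCs and from 0 to 721 CPM in WT_P30 OHCs, without overlap. Its mean was 3356 CPM in WT_P60 SCs, 126 in WT_P30 OHCs, 432 in OHC-like cells, 418 in nascent HCs and 929 in failing SCs. Srxn1, which restores oxidised peroxiredoxins, was detected in 2 of 17 WT_P30 OHCs and 1 of 16 WT_P60 SCs, against 5 of 11 OHC-like cells, 11 of 16 nascent HCs and 10 of 15 failing SCs, where its mean was 627 CPM and its highest cell 3191 CPM. Msrb2, a mitochondrial methionine sulfoxide reductase, had no count in any WT_P30 OHC and a mean of 20.6 CPM in WT_P60 SCs, at least 46.5-fold more. Against WT_P60 SCs its log2 ratio was -5.94 or lower in OHC-like cells and -3.47 in nascent HCs. In failing SCs it stayed under 4-fold. Msra, which reduces the other form of methionine sulfoxide, had means of 1.55, 8.35 and 23.3 CPM in WT_P30 OHCs, WT_P60 SCs and OHC-like cells. Txn1, thioredoxin itself, stayed under 4-fold, with means of 249 to 380.4 CPM.

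The genes whose levels followed Selenow most closely over the 75 cells, by Spearman correlation among 12085 other genes, were Smpx (0.87), Calml4 (0.86), Pkig (0.86), Ocm (0.85) and Cib2 (0.85). All 5 had a higher mean in WT_P30 OHCs than in WT_P60 SCs, for example 1052 against 6.37 CPM for Smpx. Selenow was chosen on that difference and both groups enter the coefficients, so nothing is read from this. For Selenom they were Inka2 (0.86), Mfng (0.86), Apoa4 (0.85), Gfra4 (0.84) and Dmpk (0.84). Mfng, Apoa4 and Gfra4 had no count in the wild-type cells and means of 688, 117 and 431 CPM in OHC-like cells. These coefficients were taken over all groups at once, and the cells of a group share age, mouse line and, in part, series of library numbers.

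The labels were set against markers of cell type. As the authors divided the induced cells by Myo7a and Prestin (Slc26a5) from these data, the sum that holds both genes is no independent check of those 3 groups. The summed level of Ocm, Slc26a5, Myo7a and Lmo7 ran from 11621 to 44004 CPM in WT_P30 OHCs, was at most 0.305 CPM in WT_P60 SCs, and ran from 113 to 6662 CPM in OHC-like cells, from 115 to 7243 CPM in nascent HCs and from 0 to 201 CPM in failing SCs. That of Sox2, Sox10, Bace2 and Fgfr3 ran from 0 to 161 CPM in WT_P30 OHCs, where Sox2 and Sox10 had no count, from 1358 to 3491 CPM in WT_P60 SCs, from 158 to 857 CPM in OHC-like cells, from 148 to 882 CPM in nascent HCs and from 271 to 5178 CPM in failing SCs. In OHC-like cells Fgfr3 made most of that sum, with a mean of 309 CPM against 56.5, 10.4 and 0.175 CPM for Bace2, Sox2 and Sox10. The inner hair cell markers Otof and Slc17a8 summed to a median of 427 CPM in WT_P30 OHCs, up to 1376 CPM. At least 1 of them was detected in 15 of 17 cells, Otof in 14 and Slc17a8 in 2. Their means there were 435 CPM for Otof and 7.09 CPM for Slc17a8. In the other groups the 2 summed to at most 41.2 CPM in a cell. Of the 4 macrophage, 3 blood, 3 endothelial, 3 fibroblast and 3 neuronal markers, the highest sums in a cell were 91.6, 2530.4, 296, 132 and 861 CPM, and the median sum was 0 in every group except for the endothelial markers in WT_P60 SCs (19.9 CPM) and the neuronal ones in WT_P30 OHCs and nascent HCs (0.128 and 0.0973 CPM). In WT_P60 SCs the endothelial sum was mostly Pecam1 (mean 78.3 CPM), and Cdh5 had no count. The blood markers peaked in 1 OHC-like cell. Their part in the levels of the 10 genes was not tested.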

How the data were processed

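The data were 75 single cells of the mouse cochlea, each a GEO sample of its own, in 1 table of raw read counts per gene that the authors deposited. Per the study's methods, FastQC 0.11.9 and Trimmomatic 0.39 served for quality control of the raw data. Reads were aligned to GRCm38 with HISAT2 2.1.0 and counted with HTSeq 0.10.0, with an annotation release that is not given in the sources used here. StringTie 1.3.5 gave TPM values, which were not used here. Counts of single cells have no molecular identifiers, so amplified copies count repeatedly.

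The row of the vector element WPRE (0.0254% of all counts) was left out. Library sizes were scaled by TMM (edgeR 4.0.16, R 4.3.3) on 11443 genes kept by filterByExpr at a minimum count of 10. Group levels are means of CPM over cells, means under 3 counts per library were set to that floor, and ratios cover the 12086 genes with a mean of at least 10 CPM in a group. A gene counted as detected at 1 CPM of the unscaled library. TPM used the exon length of 53292 genes (GENCODE M21), which hold 99.0% of the counts. Totals per cell of 4264780 to 22934062 put the floor at 0.146 to 0.836 CPM.

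Groups came from the labels. As these name no animal, a group counted as 1 sample, no test was run, and no pair of cells in a group had identical counts. The genes named are the 10 followed, listed genes described as under 4-fold, and the 5 genes most like Selenow and most like Selenom. Also named are listed genes past 4-fold between the wild types or between OHC-like cells and either wild type. Of these, at most 4 a list were named, with Nfe2l2 beside them. The 10 genes and the lists were chosen with earlier results of these data known. An exon overlap of a followed gene is not reported here. The scripts were tested on simulated data. Alternatives were other scalings (DESeq2 1.42.0), group levels, limits, thinned counts and cells left out.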

Additional observations from a re-analysis of the deposited data

How the results depend on the processing

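Of 700 log2 ratios of the 10 genes under 10 alternatives, 686 moved by less than the spread between cells, 14 moved by more, and 0 of those past 4-fold changed sign. Where an alternative left out cells, the comparisons without those cells could not move, and their ratios are among the 686. Taking the median over cells moved 13 of the 14, genes with many cells at 0, and centring on the median of all genes moved the other, Selenow in OHC-like cells against WT_P30 OHCs, from -0.86 to -1.35. The counts of genes past 4-fold moved by more than 1.5 times in 19 of 154 cases. In OHC-like cells against WT_P60 SCs, 1 gene (Txnrd2, at a log2 ratio of -1.99) was lower in place of 0 with DESeq2 size factors, total counts, TMMwsp, medians, summed counts or centring. In failing SCs against WT_P60 SCs, 1 was lower in place of 0 with DESeq2 size factors or medians. With medians, 2 genes were higher in place of 1 and 4 lower in place of 2 in WT_P30 OHCs against WT_P60 SCs, 4 were higher in place of 2 in OHC-like cells against WT_P30 OHCs, and 1 was higher in place of 0 against nascent HCs. A limit of 2-fold, which counts more genes by construction, gave 2 higher and 4 lower in WT_P30 OHCs against WT_P60 SCs, 2 lower in OHC-like cells and 2 lower in failing SCs against WT_P60 SCs, 2 higher and 1 lower in OHC-like cells against failing SCs, and 2 higher against nascent HCs. Within 1.5 times, it also gave 4 higher in place of 3 and 3 lower in place of 2 in nascent HCs against WT_P60 SCs. The cause of the other moves was not tested. Without the 7 cells of low mapping rate, the means of failing SCs went from 712 to 568 CPM for Selenow and from 557 to 515 CPM for Selenom. Leaving out each cell in turn was chosen after seeing the data. Within series of library numbers, 15 of 60 ratios moved by more than the spread between cells. No paired analysis was possible because no test was run and the replicate numbers only name cells.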

Other observations

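Genes of glutathione synthesis and antioxidant defence formed a list of 15, of which 12 reached 10 CPM in a group. Most were under 4-fold between the wild types. In WT_P30 OHCs 1 was higher than in WT_P60 SCs and 2 were lower, beside 15.4% and 21.5% of all genes compared. The gene higher was Nfe2l2, which encodes a transcription factor and not an enzyme. It was also among the genes higher in OHC-like cells, nascent HCs and failing SCs against WT_P60 SCs. In OHC-like cells 5 were higher and 0 lower past 4-fold against WT_P60 SCs (19.9% and 12.0% of all genes), and 4 were higher and 0 lower against WT_P30 OHCs (24.6% and 10.1%). Against WT_P60 SCs, 3 were higher and 0 lower in nascent HCs (19.5% and 10.5%), and 5 were higher and 0 lower in failing SCs, those failing to become HCs (17.5% and 8.51%). Gclc, the catalytic subunit of the first enzyme of glutathione synthesis, had means of 17.9 CPM in WT_P30 OHCs and 13.9 CPM in WT_P60 SCs, and of 110.4, 93.0 and 139 CPM in OHC-like cells, nascent HCs and failing SCs. It was detected in 3 of 17 and 8 of 16 wild-type cells against 9 of 11, 16 of 16 and 13 of 15 cells. Sod3, an extracellular superoxide dismutase, had no count in the 33 wild-type cells. It reached 1 CPM in 6 of 11 OHC-like cells, up to 586 CPM. It did so too in 6 of 16 nascent HCs, where 1 cell held 4874 CPM. In failing SCs it was also higher than in WT_P60 SCs past 4-fold, with a log2 ratio of at least 5.72. Hmox1, which breaks down haem, had no count in WT_P30 OHCs and a mean of 3.54 CPM in WT_P60 SCs, against 15.0 CPM in OHC-like cells and 38.2 CPM in failing SCs. Cat, which breaks down hydrogen peroxide, had a mean of 76.8 CPM in WT_P60 SCs against 8.17 CPM in WT_P30 OHCs and 23.5 CPM in OHC-like cells.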
